A study of Mus musculus with 3 samples.

Results

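The cells described here were neuron-committed progenitors of a mouse rhabdoid brain tumour model, chosen by the transcripts found in each cell. A cell was kept when it had at least 3000 unique molecular identifiers (UMIs, each the count of 1 captured transcript) and at most 15% of its UMIs from mitochondrial genes. It had to hold UMIs of at least 2 of the 5 genes Neurog1, Neurog2, Nhlh1, Gadd45g and Insm1, and none of Dcx and Stmn2, which encode proteins of the neuronal microtubule skeleton. Fewer than 2 of the immune genes C1qa, Tyrobp and Ctss and fewer than 2 of the endothelial genes Cldn5, Pecam1 and Flt1 were allowed. This rule chose 855 cells of the 28380 barcodes in the series, with 490 in tumour 1, 127 in tumour 2 and 238 in tumour 3. These cells are called committed cells below. Measured values chose them, so the levels of the genes in the rule are a description and carry no test.

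In the developing brain, proneural factors such as the neurogenins are transcribed in a progenitor that leaves self-renewal. They switch on the Notch ligands Dll1 and Dll3, and the ligand holds the neighbouring cells in the progenitor state through Notch receptors and Hes repressors. Gadd45g, Insm1 and Nhlh1 are transcribed for a short time in the same step, after which radial glial genes are shut down and the proteins of axons and synapses appear.

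The samples were 3 tumours of the R26-SHH group, each from a mouse of the genotype Rosa 26-CreERT2::Smarcb1flox/flox. Every tumour thus shares the tamoxifen-inducible Cre at Rosa26, which is not restricted to a cell type, and the floxed alleles of Smarcb1, a core subunit of the SWI/SNF chromatin remodelling complex. Tamoxifen reaches the embryo through the mother in this model, and the labels give neither the day of injection nor the age of these 3 mice. No control animals were analysed here, so the comparisons lie between classes of cells within the same tumours. The replicate numbers only name the tumours, and the p-values measure the spread of the differences between classes over these 3 tumours.

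The libraries held 79529921, 40151353 and 67645602 UMIs in tumours 1 to 3, and 12425 cells in all passed the limits on UMIs and mitochondrial share. The committed cells had a median of 10668.5, 9158 and 21066.5 UMIs per cell. The committed cells of tumour 3 had the most UMIs per cell, and that tumour also stood apart in its regional transcription factors, with values given further on. Between 22 and 42 barcodes were shared by each pair of libraries, and 1 committed cell of tumour 2 carried the same barcode as 1 of tumour 3. Doublet scoring marked 6.73, 3.94 and 3.78% of the committed cells, against 5.0, 1.8 and 1.7% of the Sox2-positive cells they were compared with.

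Gadd45g, which encodes a stress-responsive inhibitor of cell cycle progression, was the gene most often found. A Gadd45g UMI was present in 94.9, 92.1 and 94.5% of the committed cells of tumours 1, 2 and 3. Insm1, a zinc-finger repressor of progenitors that leave the ventricular zone, was present in 82.7 and 77.2% of the cells of tumours 1 and 2 but in 42.4% of those of tumour 3. Neurog2 went the other way, with 27.3, 29.9 and 71.4%. Tumour 3 thus differed from the others in the pair of genes that brought its cells in. Gadd45g with Insm1 alone accounted for 68.4, 59.8 and 23.9% of the committed cells, and Neurog2 with Gadd45g alone for 14.5, 14.2 and 50%. Tumour 3 kept the highest share for Neurog2 and the lowest for Insm1 after each cell was thinned to 3000 UMIs, when Neurog2 was seen in 16.3, 12.6 and 30.3% of the same cells and Insm1 in 50.2, 38.6 and 14.3%. In UMIs per 1000000 of the summed cells (CPM), a scale that does not grow with depth, Neurog2 stood at 122, 74.1 and 158 and Insm1 at 230, 158 and 62.9.

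Neurog1 and the neuronal helix-loop-helix factor Nhlh1 were rare. Neurog1 was found in 3.27, 10.2 and 4.62% of the committed cells and Nhlh1 in 2.86, 3.94 and 6.72%. Immune cells, which should transcribe none of these genes apart from Gadd45g, held Gadd45g in 30.1, 21.9 and 37.0% of cells, Insm1 in 6.99, 8.55 and 4.85%, Neurog2 in 2.38, 1.99 and 7.27%, and Neurog1 or Nhlh1 in under 1% each. The rule set the shares of committed cells, so they lie above this background by construction. Exactly 2 of the 5 genes were found in 90, 88.2 and 83.6% of the cells, and no cell held all 5. The name of the class therefore rests mostly on Gadd45g, Insm1 and Neurog2. Just inside the UMI limit, 3, 1 and 3 committed cells had fewer than 3500 UMIs, and just outside it 4, 3 and 1 cells that met the other conditions had 2500 or more. The condition on 2 genes moved the number of cells the most, since 1517, 595 and 692 cells held exactly 1 of the 5 genes and met every other condition.

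**Figure D1:**
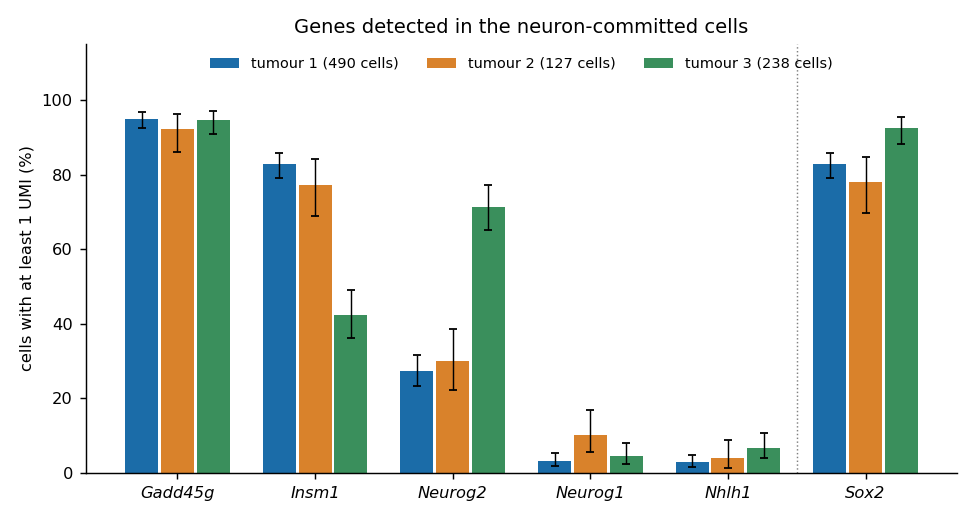
Percentage of committed cells with at least 1 UMI of each gene, per tumour, with exact 95% binomial intervals for counting error only. The 5 genes left of the dotted line chose the cells. Insm1 was lowest and Neurog2 highest in tumour 3, and Sox2, which took no part in choosing these cells, was found in 78.0 to 92.4% of them.

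The rule did not use Sox2 for these cells, and a UMI of Sox2, the stem cell factor of the neural tube, was present in 82.7, 78.0 and 92.4% of them, against 34.3, 27.5 and 44.2% of immune cells. Immune cells should lack Sox2, so their share is read as the background from RNA of other cells, either free or in doublets. Doublet scoring marked 11.7, 8.83 and 6.67% of the immune cells, and these sources were not told apart. At 3000 UMIs in every cell the Sox2 shares were 61.8, 51.2 and 66.4% in committed cells and 21.3, 14.8 and 18.2% in immune cells, whose median depths before thinning were 10161, 7566.5 and 19729 UMIs. The committed cells stood above that background in every tumour at either depth.

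Committed cells made up 7.78, 3.82 and 8.50% of the cells that passed the UMI and mitochondrial limits, a mean of 6.70 ± 2.52% (SD, n = 3). Among cells that were neither immune nor vascular the shares were 8.98, 4.98 and 9.36%. The same gene conditions were met by 2.94, 1.99 and 3.64% of the immune cells of the 3 tumours. These immune shares are the background of the rule, and the number of committed cells that free RNA brought in was not tested. After thinning to 3000 UMIs the conditions were met by 4.69, 2.27 and 2.60% of the cells neither immune nor vascular and by 0.34, 0.343 and 0.8% of immune cells. The exact 95% intervals of these shares did not overlap in tumours 1 and 2 and overlapped in tumour 3, where only 125 immune cells remained.

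**Figure D2:**
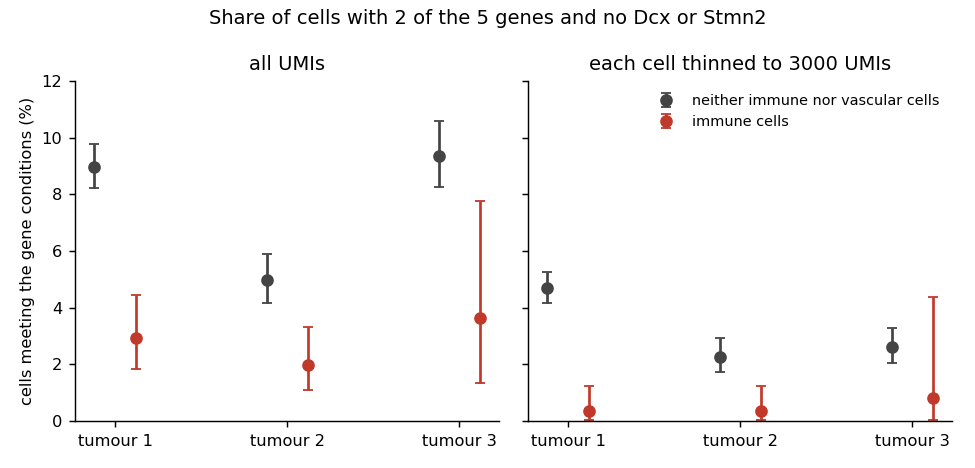
Percentage of cells that met the conditions on the 5 genes and on Dcx and Stmn2, in cells neither immune nor vascular and in immune cells, per tumour, with all UMIs (left) and with each cell thinned to 3000 UMIs (right). Bars are exact 95% binomial intervals. The intervals of the 2 cell groups overlap only for tumour 3 after thinning.

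The question of which genes set the committed cells apart from the progenitors around them was addressed by comparing them with 3581 Sox2-positive cells that had none of the 5 genes and no Dcx or Stmn2. Counts were summed per tumour and class and tested with edgeR's quasi-likelihood test with the tumour as a block. Differences are on the log2 scale with their standard error (SE), and a gene was called at a Benjamini-Hochberg adjusted p under 0.05 over all 13432 genes tested. In the committed cells 389 genes rose, 2.9% of those tested, and 465 fell, 3.46%. These shares are the background for the counts of each gene list in this comparison. Proneural factors and Notch ligands were among those that rose, together with the neuronal structure genes Tubb3, Elavl3 and Elavl4. Radial glial genes were among those that fell. The number of calls rests on comparing cells within a tumour, since a fit without the tumour as a block called 2 genes, Dll1 and Dll3. It also rests on tumours 1 and 2, whose removal left 35 and 84 calls, against 1112 when tumour 3 was removed. Of the 44 genes named by a set rule or list, 29 were called, and 7 of them kept their call whichever tumour was left out, among them Dll1, Dll3, Hes6, Sox11, Elavl4 and Fabp7. With cells that held Dcx or Stmn2 allowed among the Sox2-positive cells, 527 genes were called, and 6 of the named genes lost their call, namely St18, Tubb3, Nhlh2, Ebf2, Id3 and Actl6b.

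Of 40 proneural and early neuronal factors listed, 35 were tested. In the committed cells 19 rose, none fell and the median log2 difference was 1.83, against -0.0152 over all genes tested. The classes were split on genes of this kind, so factors transcribed together with them are higher here partly through the choice of cells. The list was also chosen with earlier results of these data known. Its count and median are therefore a description. Removal of tumour 1, 2 or 3 left 3, 6 and 21 that rose. Hes6, an inhibitor of Hes repressors that promotes neuronal differentiation, had 396, 251 and 332 CPM in the committed cells of tumours 1, 2 and 3 against 62.2, 63.9 and 100 CPM in their Sox2-positive cells. The groups did not overlap, and Hes6 rose by 2.07 ± 0.18 (SE, adjusted p = 0.0012).

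The SoxC factors Sox4 and Sox11, which open neuronal genes in newly formed neurons, rose by less and from high levels. Sox11 had 3910, 4060 and 2740 CPM against 2080, 2060 and 1770 CPM, a rise of 0.78 ± 0.06 (adjusted p = 0.00067). Sox4 had 2440, 3020 and 692 CPM against 1250, 1800 and 346 CPM, a rise of 0.84 ± 0.16 (adjusted p = 0.024). Sox4 was low in tumour 3 in both classes, so its groups overlapped across tumours although each tumour showed the rise. Sox4 was not called with tumour 1 or tumour 2 removed or without cycling cells. St18, a zinc-finger factor related to Myt1, had 29.1, 20.9 and 10.3 CPM against 3.32, 5.06 and 0.627 CPM, and its rise of 2.99 ± 0.72 (adjusted p = 0.045) was the largest among the genes named by size. St18 was not called with tumour 1 or tumour 2 removed, with at least 3 of the 5 genes or in members with a Sox2 UMI. Myt1 itself rose from a mean of 1.06 to 8.13 CPM (log2 difference 3.12 ± 0.56, adjusted p = 0.018).

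Several of the factors that rose were counted from few UMIs. Ebf2, a helix-loop-helix factor of migrating neurons, had 45, 4 and 41 UMIs in the committed cells and 6, 0 and 7 in the Sox2-positive cells, which were far more numerous. Nhlh2 had 18, 0 and 27 against 2, 4 and 6 UMIs, so it was higher in 2 of the 3 tumours (adjusted p = 0.044). Nhlh2 was not called by DESeq2 (adjusted p = 0.25), at 3000 to 15000 UMIs (0.11), with Dcx or Stmn2 allowed in the Sox2-positive cells (0.22) or with tumour 1, 2 or 3 removed (0.31, 0.073 and 0.096). Atoh1 had 23, 0 and 13 against 0, 0 and 2. In each of these genes tumour 2 held 4 UMIs or fewer in committed cells, so the higher level rests on tumours 1 and 3. The neuronal differentiation factor Neurod1 had 23.7, 20.2 and 3.33 CPM against 3.98, 4.25 and 0 CPM. The Neurod1 groups overlapped because tumour 3 was low in the committed cells, and its difference of 2.65 ± 0.73 missed the threshold (adjusted p = 0.07). Neurod1 was called higher with tumour 3 removed (adjusted p = 0.00025), at 3000 to 15000 UMIs (0.0012), without cycling cells (0.013), without other cell types (0.048), after thinning (0.001) and with no low count filter (4.2e-05). Neurod4 (adjusted p = 0.20, or 0.04 with no low count filter) and the antiproliferative gene Btg2 (0.20 ± 0.11, adjusted p = 0.33) were not called.

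Of 13 Notch ligands and modulators tested, 5 rose and 1 fell, with a median log2 difference of 0.179. Over all genes tested 2.9% rose and 3.46% fell. Ligands transcribed together with the genes that chose the cells are higher here partly through that choice. Dll1 had 259, 226 and 281 CPM in committed cells and 51.4, 47.7 and 35.9 CPM in Sox2-positive cells. Dll3, a ligand that acts within the cell that makes it, had 67.0, 51.2 and 105 CPM against 12.8, 11.1 and 11.4 CPM. For both ligands the classes were far apart and did not overlap, with a rise of 2.48 ± 0.13 (adjusted p = 7e-05) for Dll1 and 2.62 ± 0.18 (adjusted p = 0.00028) for Dll3. The modifier of Notch glycosylation Mfng had 22.9, 11.4 and 8.72 CPM against 1.84, 2.78 and 1.92 CPM and rose by 2.72 ± 0.41 (adjusted p = 0.0094). Jag1 rose by 1.02 ± 0.14 (adjusted p = 0.0068), and Dll4 had 43, 1 and 47 UMIs against 8, 3 and 23. The non-canonical ligand Dlk1 fell by 1.28 ± 0.29 on the log2 scale (adjusted p = 0.039). Dlk1 was not called with tumour 1 or tumour 2 removed, in members with a Sox2 UMI or without mural cells, which are defined further on. With tumour 1 or tumour 2 removed 2 of the list rose, and with tumour 3 removed 4 did.

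Of 13 Notch receptors and effectors tested, 2 rose and 2 fell, against 2.9% and 3.46% over all genes. With tumour 1, 2 or 3 removed, 0, 1 and 1 rose and 0, 0 and 5 fell. Nrarp and Rbpj, a feedback inhibitor and the DNA-binding partner of the pathway, rose by 0.56 ± 0.11 and 0.55 ± 0.07 (adjusted p = 0.024 and 0.0062), and Hey1 and Notch3 fell by 0.88 ± 0.20 and 0.88 ± 0.21 (adjusted p = 0.037 and 0.043). Hes1, the Notch target that keeps radial glia undifferentiated, had 180, 164 and 416 CPM against 227, 251 and 412 CPM. It was lower in tumours 1 and 2 and level in tumour 3, and its difference of -0.33 ± 0.13 was not called (adjusted p = 0.17). Hes5 (-0.34 ± 0.29, adjusted p = 0.55) and Notch1 (0.53 ± 0.27, adjusted p = 0.29) were not called either. With tumour 3 removed both Hes1 (-0.51, adjusted p = 0.0064) and Hes5 (-0.85, adjusted p = 0.0037) were called lower. Hes1 was also called at 3000 to 15000 UMIs (-0.60, adjusted p = 0.015), after thinning (-0.72, adjusted p = 0.0056) and with no low count filter (-0.35, adjusted p = 0.022).

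Proneural factors are known to bind the E-box, and CAGCTG is a form of it that reads the same on both strands. It was searched in the 250 bases before each transcript start of the RefSeq promoter table of GRCm38.p6. Of the 389 genes that rose, 289 matched the table, and 23.9% of them held CAGCTG in at least 1 promoter, as did 14.2% of the 10178 matched genes tested, 14.7% of all 27025 genes of the table and 10.4% of the 367 matched genes that fell. Counted per promoter, the shares were 19.0% of the genes that rose, 11.9% of those tested and 13.0% of the whole table. CAGATG, searched with its reverse complement CATCTG, was held by 15.6% of the genes that rose, 11.7% of those tested and 10.9% of those that fell, and CACGTG by 9.0, 9.76 and 7.9%. A match is a description of letters and does not show binding. Among the ligands that rose, 3 of the 4 with an entry held CAGCTG, namely Dll1, Dll3 and Jag1. Among the proneural factors that rose, 6 of 13 held it, namely Hes6, Isl1, Myt1l, Sox11, Sox4 and Tcf12. The promoters of 2 ligands and 2 factors with large rises are given 5′ to 3′ on the strand of the gene, all on the minus strand, with CAGCTG in capitals. They lie at chr17:15376933-15377182 for Dll1, chr7:28301786-28302035 for Dll3, chr1:91414039-91414288 for Hes6 and chr13:116309689-116309938 for Isl1, and the motif begins 132, 7, 171 and 103 bases before that RefSeq start in that order. These starts can differ from those of the mm10 annotation, where the Dll3 stretch lies within the gene.
Dll1: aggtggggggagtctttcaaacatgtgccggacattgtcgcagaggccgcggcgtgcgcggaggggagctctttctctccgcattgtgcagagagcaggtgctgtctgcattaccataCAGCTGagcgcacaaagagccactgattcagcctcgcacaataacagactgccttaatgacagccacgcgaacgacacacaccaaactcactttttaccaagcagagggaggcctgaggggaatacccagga
Dll3: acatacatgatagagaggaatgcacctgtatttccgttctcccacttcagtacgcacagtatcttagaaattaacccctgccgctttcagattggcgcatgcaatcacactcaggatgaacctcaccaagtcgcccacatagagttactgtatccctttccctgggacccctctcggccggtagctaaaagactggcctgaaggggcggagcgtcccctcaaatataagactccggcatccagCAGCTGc
Hes6: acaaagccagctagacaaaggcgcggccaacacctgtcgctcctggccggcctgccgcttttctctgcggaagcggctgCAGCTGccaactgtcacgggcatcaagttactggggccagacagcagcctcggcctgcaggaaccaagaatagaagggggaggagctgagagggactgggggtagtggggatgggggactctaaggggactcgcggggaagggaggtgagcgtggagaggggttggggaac
Isl1: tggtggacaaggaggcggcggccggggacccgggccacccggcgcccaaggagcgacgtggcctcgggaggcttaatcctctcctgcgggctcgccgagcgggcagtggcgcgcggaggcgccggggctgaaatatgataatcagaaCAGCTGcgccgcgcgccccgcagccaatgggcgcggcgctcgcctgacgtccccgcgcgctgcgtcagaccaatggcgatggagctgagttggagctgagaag

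Among 30 neural stem and progenitor genes, 10 fell in the committed cells, none rose and the median log2 difference was -0.448. When tumour 1, 2 or 3 was removed, 3, 4 and 14 fell and 0, 0 and 2 rose, and 2 also rose with at least 3 of the 5 genes required. Fabp7, the fatty acid carrier of radial glia, had 1000, 878 and 516 CPM in committed cells against 2870, 2210 and 1020 CPM. The lowest Sox2-positive value and the highest committed value nearly met, but every tumour fell by itself, and the difference was -1.34 ± 0.10 (adjusted p = 0.0005). Vim, an intermediate filament of radial glia, had 1160, 967 and 1170 CPM against 1880, 1400 and 1680 CPM (-0.65 ± 0.09, adjusted p = 0.0059). Sox9 had 235, 322 and 196 CPM against 378, 741 and 264 CPM (-0.80 ± 0.15, adjusted p = 0.019). Sox9 was not called with tumour 1 or tumour 2 removed or without cycling cells, and Vim was not called with tumour 2 removed. The BMP-responsive inhibitor of proneural factors Id3 had 425, 168 and 627 CPM against 610, 582 and 1150 CPM (-1.01 ± 0.25, adjusted p = 0.048). Id3 was not called by DESeq2 (adjusted p = 0.061), with tumour 1 or tumour 3 removed (0.17 and 0.065), without cycling cells (0.073), without other cell types (0.076), in members with a Sox2 UMI (0.082) or with Dcx or Stmn2 allowed in the Sox2-positive cells (0.061). In Sox9 and Id3 the classes overlapped across tumours while each tumour fell by itself. Ttyh1, Ptprz1, Prom1, Id4, Slc1a3 and Ednrb fell as well. Nes (-0.38 ± 0.23, adjusted p = 0.38), Id1 (-0.32 ± 0.16, adjusted p = 0.28) and the repressor of neuronal genes Rest (-0.47 ± 0.12, adjusted p = 0.06) missed the threshold. Rest was called lower by DESeq2 (adjusted p = 0.037), with tumour 3 removed (-0.69, adjusted p = 0.0062), at 3000 to 15000 UMIs (-0.92, adjusted p = 0.0034), after thinning (-1.17, adjusted p = 0.0068), with at least 3 of the 5 genes (-1.02, adjusted p = 0.023) and with no low count filter (adjusted p = 0.0019).

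The absence of Dcx and Stmn2 was set by the rule, yet other neuronal structure genes were not silent in these cells. Of 41 neuronal structure and synapse genes tested, 17 rose and 1 fell, with a median log2 difference of 0.727. Those transcribed together with the genes that chose the cells are higher here partly through that choice. With tumour 1, 2 or 3 removed, 3, 6 and 21 rose. Tubb3, the neuronal beta-tubulin, had 68.4, 37.0 and 46.0 CPM in committed cells and 12.1, 18.6 and 7.05 CPM in Sox2-positive cells. Elavl4, an RNA-binding protein of young neurons, had 428, 344 and 407 CPM against 148, 122 and 180 CPM. In both genes the classes did not overlap, and the rises were 2.17 ± 0.35 (adjusted p = 0.013) and 1.33 ± 0.08 (adjusted p = 0.00011). Elavl3 rose by 1.92 ± 0.34 (adjusted p = 0.018) and the secretory granule gene Chgb by 2.56 ± 0.34 (adjusted p = 0.0055). Gap43, a protein of growth cones, had 42.0, 48.5 and 10.5 CPM against 50.4, 52.7 and 5.37 CPM and did not differ beyond its error (0.03 ± 0.27, adjusted p = 0.99). The 1 gene of the list that fell was Tubb2a (-0.56 ± 0.13, adjusted p = 0.04), a tubulin that shares sequence with Tubb2b, so reads of the pair may be split between them. None of the list fell with tumour 1 or tumour 2 removed or with at least 3 of the 5 genes, and 2 fell with tumour 3 removed. The calls of Tubb3 and Elavl3 depended on the cells compared. With Dcx or Stmn2 allowed in the Sox2-positive cells, Tubb3 was at 1.56 ± 0.56 (adjusted p = 0.17) and Elavl3 at 1.52 ± 0.40 (adjusted p = 0.076), and with tumour 1 removed at adjusted p = 0.21 and 0.26. Elavl3 was not called with tumour 2 removed either (adjusted p = 0.082). Elavl4 kept its call in each of these fits.

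**Figure D3:**
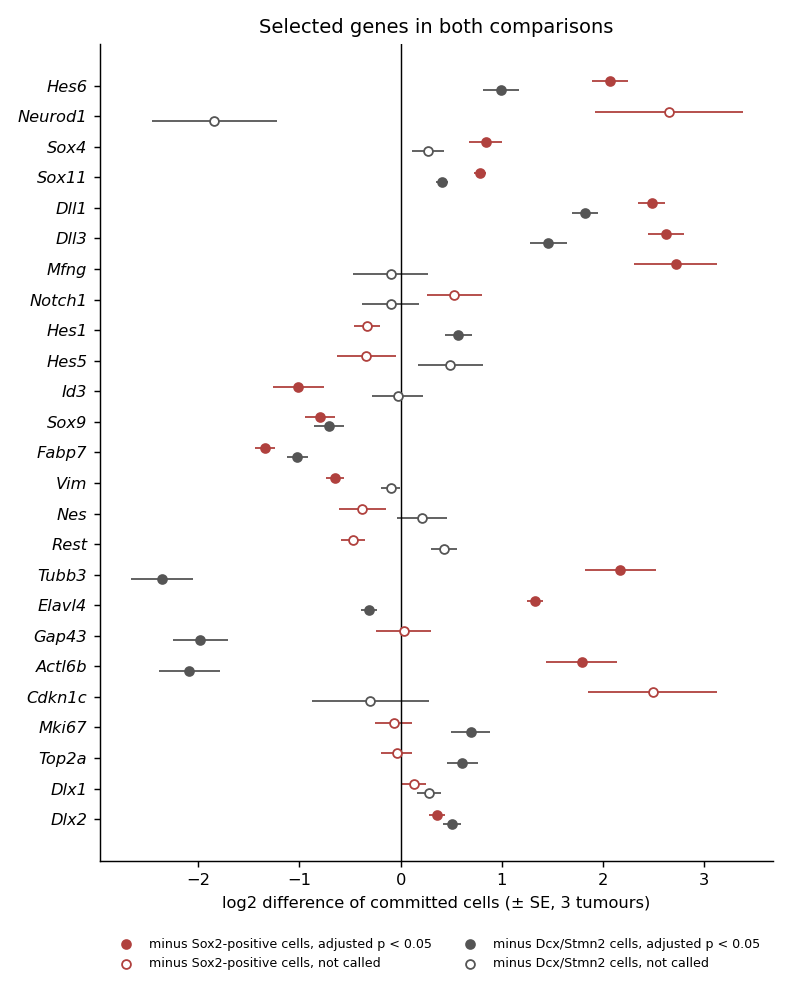
Log2 difference ± SE of selected genes in committed cells, against Sox2-positive cells without the 5 genes (red) and against neuronal cells with Dcx or Stmn2 (grey), from 3 tumours. Filled points have an adjusted p under 0.05. Tubb3 and Actl6b lie to the right of 0 in red and to the left in grey, while Dll1, Dll3 and Hes6 lie to the right in both.

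Other genes with large rises, by the rule on size, were Pou2f2 (2.34 ± 0.23, adjusted p = 0.0018), the delamination gene Lzts1 (2.32 ± 0.28, adjusted p = 0.0041), the long non-coding RNA Miat (2.20 ± 0.38, adjusted p = 0.014) and Pmaip1, which encodes a pro-apoptotic protein (2.15 ± 0.33, adjusted p = 0.011). Pou2f2 had 37.9, 10.1 and 35.2 CPM in committed cells against 7.14, 4.90 and 5.09 CPM, and immune cells carried it at a mean of 226 ± 74.4 CPM (SD, n = 3). The immune markers summed over their list of 11 genes lay at 37.6, 53.2 and 20 CPM in committed cells and at 41.7, 72.8 and 19.6 CPM in Sox2-positive cells, against 15700 CPM or more in immune cells. The largest falls besides Fabp7 were S100a1 (-1.89 ± 0.26, adjusted p = 0.0065), the interferon-induced Isg15 (-1.69 ± 0.31, adjusted p = 0.018), Ndrg2 (-1.33 ± 0.14, adjusted p = 0.0025), the cystine transporter Slc7a11 (-1.33 ± 0.21, adjusted p = 0.011), Pcdh7, Etv4 and Ctsc. S100a1 had 14.4, 16.8 and 2.69 CPM against 40.5, 77.1 and 11.3 CPM.

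Proliferation genes were compared between the committed and the Sox2-positive cells. Of 23 S phase genes and 23 G2 and mitosis genes none was called by edgeR or DESeq2, and 3 S phase genes were lower at an unadjusted p under 0.05. The median log2 differences were -0.168 and -0.0834. With every cell thinned before the classes were drawn, the medians were -0.638 and -0.536, and 2 S phase genes and 1 mitosis gene were called lower. With tumour 3 removed 1 S phase gene was called lower. Mki67 had 75.7, 76.1 and 160 CPM against 96.9, 74.0 and 129 CPM, so the classes overlapped and tumour 3 was high in both. At 3000 UMIs per cell, at least 2 of 10 G2/M genes were found in 13.5, 16.5 and 23.1% of the committed cells and in 15.9, 13.2 and 19.8% of the Sox2-positive cells, or 23.7, 29.1 and 47.1% against 26.9, 21.9 and 43.4% with all UMIs. The thinned difference was 1.38 ± 3.31 percentage points (SD, n = 3, exact two-sided sign-flip permutation p = 0.5, where 0.25 is the smallest that 3 tumours allow). It was negative in tumour 1 and positive in tumours 2 and 3. Of 16 cell cycle exit genes, Ccng2 rose and the G1 cyclin Ccnd1 fell, from a mean of 417 to 295 CPM (-0.56 ± 0.06, adjusted p = 0.0024). Cdkn1c, an inhibitor of cyclin-dependent kinases, had 481, 146 and 793 CPM against 69.8, 73.0 and 48.5 CPM. Its classes did not overlap, but tumour 2 was far lower than the others and the difference of 2.49 ± 0.64 missed the threshold (adjusted p = 0.057). Cdkn1c was called higher with tumour 3 removed (adjusted p = 0.0064), without doublets (0.045), at 3000 to 15000 UMIs (0.0011), without other cell types (0.041), after thinning (2.7e-05), with at least 3 of the 5 genes (0.033) and with no low count filter (3.5e-06).

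Some genes of the ganglionic eminence, the ventral progenitor zone of the forebrain, were higher in committed cells. Of 15 tested, 6 rose, among them Isl1, Gsx1, Sp9, Dlx5 and Dlx2, and none fell. Over all genes 2.9% rose and 3.46% fell. Isl1 is also counted among the proneural and early neuronal factors that rose. None of the 15 was called without tumour 1 or without tumour 2, and 5 rose without tumour 3. Gsx1, a homeobox factor of ventral progenitors, had 158, 78.8 and 263 CPM in committed cells against 48.0, 35.8 and 156 CPM. Isl1, a LIM homeobox factor of striatal and motor neurons, had 47.8, 70.7 and 29.6 CPM against 7.5, 20.4 and 10.7 CPM. The Gsx1 classes overlapped across tumours because tumour 3 was high in both, whereas the Isl1 classes did not overlap. The rises were 1.12 ± 0.20 (adjusted p = 0.017) and 1.95 ± 0.38 (adjusted p = 0.023). Dlx2 rose by 0.36 ± 0.08 (adjusted p = 0.036) and Dlx1 was not called (0.13 ± 0.12, adjusted p = 0.55). Dlx2 was not called with tumour 1, 2 or 3 removed (adjusted p = 0.27, 0.14 and 0.078), at 3000 to 15000 UMIs (0.079), without cycling cells (0.088), after thinning (0.20) or with at least 3 of the 5 genes (0.072).

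For the regional genes given here, the committed cells followed the pattern of their own tumour, as the Sox2-positive cells did. Immune cells carried Gsx1 at 19.0, 11.2 and 91.8 CPM, also highest in tumour 3. The part of RNA from other cells in these levels was not tested. Pax3, a factor of dorsal neural tissue, had 25.4, 59.9 and 613 CPM in committed cells and 12.7, 34.6 and 639 CPM in Sox2-positive cells. Meis2 had 202, 176 and 21.1 CPM against 168, 182 and 24.8 CPM, and Nkx2-1, a factor of the ventral forebrain, 22.6, 22.9 and 1.27 CPM against 22.1, 28.1 and 0.783 CPM. Emx2 had 0, 4.04 and 57.7 CPM against 1.43, 6.86 and 62.9 CPM. Tumour 3 was the one that stood apart for each of these genes, in both classes. Among 17 dorsal, midbrain and hindbrain genes tested, only Lhx9 was called, with a rise, against 2.9% that rose over all genes. Lhx9 is also on the list of proneural and early neuronal factors. En1 had 356, 443 and 114 CPM in committed cells and 327, 341 and 103 CPM in Sox2-positive cells, and Otx2 241, 193 and 357 CPM against 202, 232 and 320 CPM.

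Smarcb1, the gene targeted in this model, lies at chr10:75896769-75921617 on the minus strand of mm10. Which of its exons are deleted is not given in the sources used here, and a 3′ tag outside the deleted part does not test the deletion. In all 855 committed cells 14 Smarcb1 UMIs were counted, 7, 2 and 5 per tumour, which is 1.17, 1.35 and 0.793 CPM. Sox2-positive cells had 1.07, 1.63 and 0.783 CPM and immune cells 21.1, 12.8 and 13.2 CPM, so the committed cells stood with the Sox2-positive cells and well below the immune cells. Of the 14 UMIs, 8 lay in 6 committed cells with at least 2 of the mural markers Pdgfrb, Rgs5, Kcnj8 and Abcc9, and the other 849 cells held 6. Without the cells that carried these markers, committed cells had 0.504, 1.35 and 0.16 CPM and Sox2-positive cells 0.872, 1.64 and 0.749 CPM. Mural cells surround blood vessels and were not removed by the rule. With cells of that kind removed from every class, an alternative added after seeing the data, 872 genes were called in place of 854, and 834 were shared. Of 11 genes on a list of SWI/SNF subunits that are exchanged as neurons form, Actl6b and Smarca4 rose. Over all genes 2.9% rose, and Actl6b is also on the list of neuronal structure genes. Actl6b, the neuronal subunit, had 45, 10 and 12 UMIs in committed cells and 31, 22 and 10 in Sox2-positive cells, or 7.52, 6.74 and 1.90 CPM against 1.58, 3.59 and 0.392 CPM (1.79 ± 0.35, adjusted p = 0.023). With Dcx or Stmn2 allowed in the Sox2-positive cells Actl6b was not called (1.20 ± 0.45, adjusted p = 0.18), nor was it in members with a Sox2 UMI (adjusted p = 0.063) or with at least 3 of the 5 genes (adjusted p = 0.13). Smarca4, the ATPase, rose by 0.22 ± 0.05 (adjusted p = 0.047). With tumour 1 or tumour 2 removed neither was called, at adjusted p = 0.38 and 0.067 for Actl6b and 0.45 and 0.19 for Smarca4. Smarca4 was not called with tumour 3 removed either (adjusted p = 0.074), nor with no low count filter, at 5000 UMIs or more, without cycling cells or without other cell types (adjusted p = 0.13, 0.058, 0.11 and 0.081). The same held at 3000 to 15000 UMIs, after thinning and with Dcx or Stmn2 allowed in the Sox2-positive cells (adjusted p = 0.072, 0.19 and 0.073).

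Genes of cell stress moved with the comparison and are given beside it. Of 12 stress and immediate early genes, 6 fell in the committed cells (Hspa1b, Fosb, Fos, Jun, Ier2 and Egr1) and none rose, against 3.46% that fell over all genes. The summed level of the 12 genes was 4610, 6230 and 4260 CPM against 6530, 7740 and 5180 CPM. Without tumour 1 or without tumour 2 only 1 of them was called. Summed astrocyte markers were at 269, 318 and 204 CPM against 298, 440 and 151 CPM, with 2 of 8 lower (Aldh1l1 and Slc4a4). Summed oligodendrocyte lineage markers were at 313, 1180 and 50.3 CPM against 290, 1210 and 74.1 CPM, with none of 11 called by edgeR or DESeq2 and 1 lower at an unadjusted p under 0.05, and mural markers at 103, 21.6 and 203 CPM against 72.2, 26.9 and 61.1 CPM, with none of 7 called by either and 0 at an unadjusted p under 0.05. At least 2 oligodendrocyte markers were found in 24.4% of the committed cells and 18.3% of the Sox2-positive cells of tumour 2, and in under 3% of either class in the other tumours. No marker of these lists was at 0 in every tumour. The part of stress genes and of other cell types in the differences was not tested. With the cells that carried astrocyte or oligodendrocyte markers removed, 823 genes were called, of which 702 were shared.

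**Figure D4:**
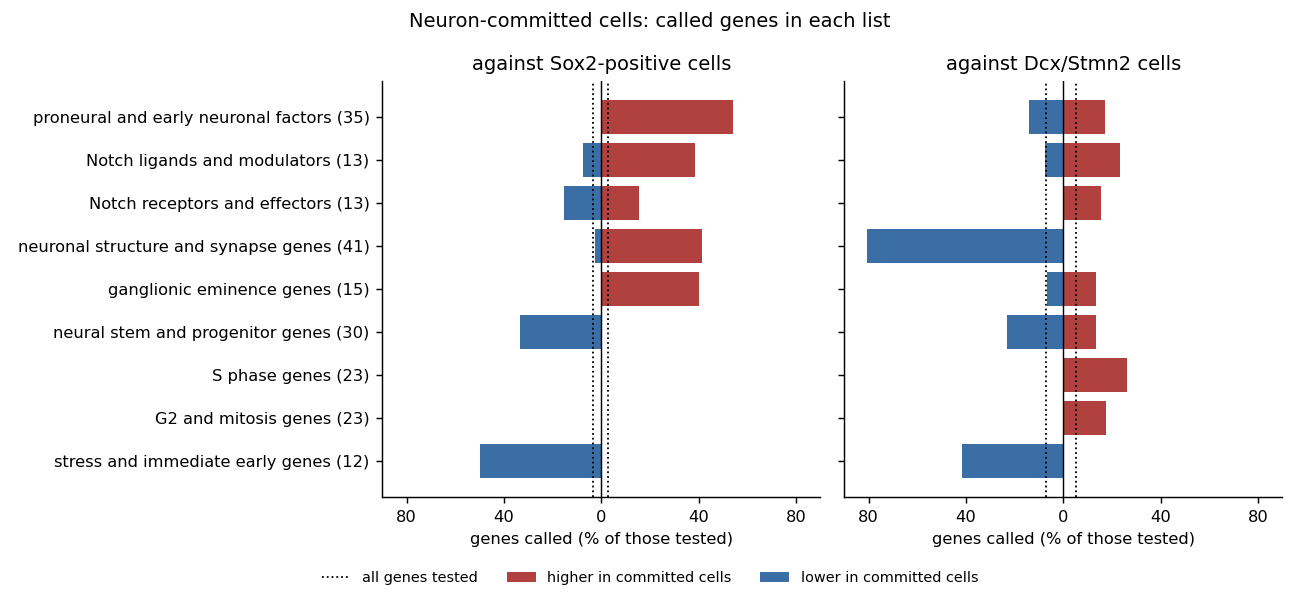
Percentage of the tested genes of each list (number tested in brackets) that were higher or lower in committed cells, against Sox2-positive cells (left) and against neuronal cells (right), at an adjusted p under 0.05. Dotted lines mark the percentages over all genes tested, 2.9 and 3.46% on the left and 5.01 and 7.32% on the right. The bar of neuronal structure genes changes side between the panels, and the proliferation lists have bars on the right only.

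The committed cells were also compared with 1184 neuronal cells, which had at least 2 UMIs in all of Dcx and Stmn2 and could hold any of the 5 genes. Whether 1 class gives rise to the other was not tested. In the same fit 673 genes were higher in the committed cells, 5.01% of those tested, and 983 were lower, 7.32%. These shares are the background for the list counts against neuronal cells. Dll1 was the gene with the largest rise by the rule on size, and Lhfpl3 and Snhg11 were among those with the largest falls. This comparison rests on the pairing within tumours as well, since 6 genes were called with no tumour block. Removal of tumour 1, 2 or 3 left 181, 112 and 1474 calls. Of the 44 named genes 30 were called, and 6 kept their call whichever tumour was left out, among them Dll1, Dll3, Snhg11, S100a1 and Tubb3. With cells of 3000 to 15000 UMIs only, 842 genes were called.

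Several proneural and ligand genes that were higher in committed than in Sox2-positive cells were also higher than in neuronal cells. Dll1 had 78.6, 78.6 and 69.6 CPM in the neuronal cells of tumours 1, 2 and 3 against the 259, 226 and 281 CPM of the committed cells (1.82 ± 0.13, adjusted p = 0.00044). Dll3 had 30.3, 22.7 and 30.1 CPM against 67.0, 51.2 and 105 CPM (1.46 ± 0.18, adjusted p = 0.0026). For both ligands no neuronal value reached any committed value. Hes6 (0.99 ± 0.18, adjusted p = 0.011), Jag1 (1.00 ± 0.15, adjusted p = 0.0058) and Sox11 (0.41 ± 0.06, adjusted p = 0.0056) were also higher in committed cells. Hes6 was not called with tumour 2 removed, and Sox11 not with tumour 1 or tumour 2 removed or with both Dcx and Stmn2 required. Jag1 was not called with tumour 1 or tumour 2 removed (adjusted p = 0.056 and 0.08) or with at least 3 genes (0.15). Msx3, a homeobox factor of the dorsal neural tube, had 122, 133 and 146 CPM against 66.0, 43.5 and 33.1 CPM (1.51 ± 0.20, adjusted p = 0.0036). Gsx1 (1.15 ± 0.21, adjusted p = 0.011), Fgf8 (1.28 ± 0.20, adjusted p = 0.0067), Fgl2 (1.25 ± 0.27, adjusted p = 0.02) and Slc27a2 (1.17 ± 0.18, adjusted p = 0.0062) were also among the largest rises. With at least 3 of the 5 genes required Fgl2 turned to -1.40 ± 0.47 (adjusted p = 0.19), and it was not called with tumour 2 removed (adjusted p = 0.14), at 3000 to 15000 UMIs (0.30), without other cell types (0.21) or with both Dcx and Stmn2 required in neuronal cells (0.14). Fgf8 was not called with tumour 2 removed (adjusted p = 0.07), without cycling cells (0.15), after thinning (0.63) or with at least 3 genes (0.14). Slc27a2 was not called with tumour 2 or tumour 3 removed (adjusted p = 0.065 and 0.063), at 3000 to 15000 UMIs (0.072) or with both Dcx and Stmn2 required (0.061). Msx3 was not called with tumour 2 removed or with at least 3 genes, and Gsx1 was not called in those fits or with tumour 1 removed. Since both comparisons share the committed cells, a high level there raises both differences at once. The committed cells were also chosen by proneural and early neuronal genes, so genes transcribed with those are higher partly through the choice of cells.

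Other proneural and early neuronal factors went the other way. Of 35 tested 6 were higher in committed cells and 5 lower, with a median of -0.559. With tumour 1, 2 or 3 removed, 3, 1 and 9 were higher and 1, 1 and 4 lower. Nhlh2 had 18, 0 and 27 UMIs in committed cells and 83, 38 and 252 in neuronal cells (-3.26 ± 0.60, adjusted p = 0.011), and St18, Scrt1, Lhx9 and Myt1l were lower too. Nhlh2 was not called with tumour 1, 2 or 3 removed (adjusted p = 0.052, 0.057 and 0.053) nor by DESeq2 (adjusted p = 0.061). Neurod1 had 23.7, 20.2 and 3.33 CPM against 55.6, 46.5 and 39.8 CPM, a difference of -1.84 ± 0.62 that was not called (adjusted p = 0.087). Neurod1 was called lower with tumour 3 removed (-1.15, adjusted p = 0.0024), with no low count filter (0.00043) and with both Dcx and Stmn2 required (-2.81, adjusted p = 0.03). Hes1 was higher in committed cells by 0.57 ± 0.13 (adjusted p = 0.028), and Hes5, Notch1 and Mfng were not called.

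Of 41 neuronal structure and synapse genes tested, 33 were lower in committed cells and none was higher, with a median of -1.55, against 7.32% lower over all genes. The classes were split on Dcx and Stmn2, so genes transcribed together with them are lower here partly through the choice of cells. With tumour 1, 2 or 3 removed, 21, 13 and 34 were lower. Tubb3 had 249, 239 and 348 CPM in neuronal cells against 68.4, 37.0 and 46.0 CPM in committed cells (-2.36 ± 0.31, adjusted p = 0.0035). Its committed level thus lay between the 2 other classes and did not overlap with either. Gap43 had 136, 278 and 38.0 CPM against 42.0, 48.5 and 10.5 CPM (-1.98 ± 0.27, adjusted p = 0.0039), where tumour 3 was low in both classes. Ina, a neurofilament protein, had 178, 136 and 36 UMIs in neuronal cells and 41, 4 and 1 in committed cells (-2.79 ± 0.52, adjusted p = 0.011). Neither Gap43 nor Ina was called with tumour 2 removed, and Ina was not called with at least 3 genes required. Elavl4 differed by -0.31 ± 0.08 (adjusted p = 0.032). It was not called with tumour 1 or tumour 2 removed (adjusted p = 0.16 and 0.11), at 3000 to 15000 UMIs (0.21) or after thinning (0.35), and with at least 3 genes required it turned to 0.26 ± 0.13 (adjusted p = 0.36). The non-coding RNA Snhg11, which marks maturing neurons, was lower by 4.42 ± 0.39 on the log2 scale (adjusted p = 0.00088).

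Some of the largest falls were in genes of glia and their precursors. Lhfpl3 had 10, 1 and 1 UMIs in committed cells and 422, 108 and 40 in neuronal cells, and Gfap, the filament of astrocytes, had 3.84, 4.71 and 4.12 CPM against 23.6, 22.2 and 110 CPM (-3.42 ± 0.73, adjusted p = 0.019). The precursor markers Pdgfra (-1.98 ± 0.32, adjusted p = 0.0072) and Sox10 (-3.14 ± 0.61, adjusted p = 0.014) were lower as well, and so were Olig1, Cspg4, Aldh1l1 and Slc4a4. Tnr, S100a1 and S100a16 were among the 8 largest falls. Of 11 oligodendrocyte lineage markers 4 were lower in committed cells and none was higher. Their summed level was 622, 451 and 102 CPM in the neuronal cells against 313, 1180 and 50.3 CPM in the committed cells, so tumour 2 went against the other tumours. In that tumour 24.5% of the neuronal and 24.4% of the committed cells held at least 2 of these markers. At least 2 oligodendrocyte precursor markers were found in 5.73, 2.27 and 2.00% of the neuronal cells, against 0, 0 and 0.420% of the committed cells. With cells carrying glial markers removed, 1176 genes were called, and 7 of the named genes lost their call, namely Gfap, Tnr, S100a16, Fgl2, Cdh2, Mki67 and Top2a.

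Of 30 neural stem and progenitor genes tested, 4 were higher in committed cells (Gli3, Sox1, Hes1 and Msi1) and 7 were lower. With tumour 1, 2 or 3 removed, 1, 0 and 4 were higher and 2, 1 and 7 lower. Neither Hes1 (adjusted p = 0.11 and 0.089) nor Sox9 (adjusted p = 0.15 and 0.095) was called with tumour 1 or tumour 2 removed. Fabp7 was lower in the committed cells here too, with 1000, 878 and 516 CPM against 2010, 2020 and 1020 CPM in neuronal cells (-1.02 ± 0.10, adjusted p = 0.0012), and Sox9 likewise (-0.71 ± 0.15, adjusted p = 0.018). In each tumour the committed cells thus had the lowest level of both genes among the 3 classes. The lower level of Fabp7 was not called with tumour 2 removed. Vim (-0.10 ± 0.09, adjusted p = 0.52), Id3 and Nes were not called. These results turn on how neuronal cells are defined. Against cells with UMIs of both Dcx and Stmn2, the difference was -0.02 for Fabp7 (adjusted p = 0.92), 0.10 for Sox9 (adjusted p = 0.79) and 0.70 for Vim (adjusted p = 0.0027).

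Some proliferation genes were higher in committed than in neuronal cells. Of 23 S phase genes 6 were higher (Mcm2, Rrm2, Dtl, Hells, Mcm7 and Slbp) and of 23 G2 and mitosis genes 4 were (Nusap1, Mki67, Top2a and Ckap2l), and none was lower. Over all genes 5.01% were higher. With tumour 1, 2 or 3 removed, 1, 0 and 6 of the S phase genes and 0, 0 and 15 of the mitosis genes were called. With the cells that carried glial markers removed, 3 S phase genes and no mitosis gene were called. With all UMIs and all tumours, 17 and 16 had an unadjusted p under 0.05. Mki67 had 40.6, 48.1 and 118 CPM in neuronal cells against 75.7, 76.1 and 160 CPM in committed cells (0.69 ± 0.19, adjusted p = 0.047). The share of cells with at least 2 G2/M genes at 3000 UMIs was 7.42, 6.58 and 16.7% in the neuronal cells, lower than the committed 13.5, 16.5 and 23.1% in each tumour, and 16.9, 15.4 and 35.3% before thinning. That difference of shares was not tested.

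Subunits of the SWI/SNF complex also differed between committed and neuronal cells. Of 11 listed genes 5 were lower in committed cells (Actl6b, Smarcb1, Dpf3, Dpf1 and Smarca2) and the progenitor subunit Actl6a was higher (0.31 ± 0.07, adjusted p = 0.024). Actl6b had 26.9, 34.5 and 11.8 CPM in neuronal cells against 7.52, 6.74 and 1.90 CPM (-2.09 ± 0.30, adjusted p = 0.0048). Smarcb1 had 39, 14 and 7 UMIs in the neuronal cells, which is 6.02, 3.24 and 2.11 CPM, against 1.17, 1.35 and 0.793 CPM in committed cells (-1.76 ± 0.45, adjusted p = 0.039). DESeq2 did not call it (adjusted p = 0.095), nor did edgeR with tumour 1, 2 or 3 removed (adjusted p = 0.39, 0.11 and 0.067). Without the cells that carried mural markers, Smarcb1 had 5.94, 3.27 and 2.11 CPM in neuronal cells against 0.504, 1.35 and 0.16 CPM in committed cells. Actl6b was not called with tumour 1 or tumour 2 removed (adjusted p = 0.062 and 0.055). Cells that are not of the tumour would carry intact Smarcb1, and whether the neuronal class holds such cells was not tested.

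The levels also varied with the number of the 5 genes found in a cell. Cells with none of the genes are the Sox2-positive class here, while cells with 1 or more did not need a Sox2 UMI. Dll1 had a mean of 45.0 ± 8.11 CPM with none of the genes, 122 ± 13.9 with 1, 253 ± 30.1 with 2 and 268 ± 25.6 with 3 or more (SD, n = 3 tumours), against 75.6 ± 5.19 CPM in neuronal cells. The values with 2 and with 3 or more genes did not differ beyond their spread. Tubb3 continued upwards, from 12.6 ± 5.80 and 22.3 ± 9.62 to 41.6 ± 17.5 and 101 ± 54.3 CPM, and was still below the 278 ± 60.0 CPM of neuronal cells. Cdkn1c went from 63.8 ± 13.3 and 125 ± 22.5 to 361 ± 197 and 1040 ± 894 CPM, with a spread that came from tumour 3 being high and tumour 2 low. Fabp7 went down from 2040 ± 935 and 1540 ± 581 to 827 ± 250 and 598 ± 289 CPM. The cells with 3 or more genes numbered 49, 15 and 39, so the last value of tumour 2 rests on 15 cells. The number of genes found grows with a cell's depth, so these levels are a description and were not tested. With 3 or more genes required, and tumour 2 left out of the committed class for having under 20 such cells, 532 genes were called against Sox2-positive cells and 85 against neuronal cells.

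**Figure D5:**
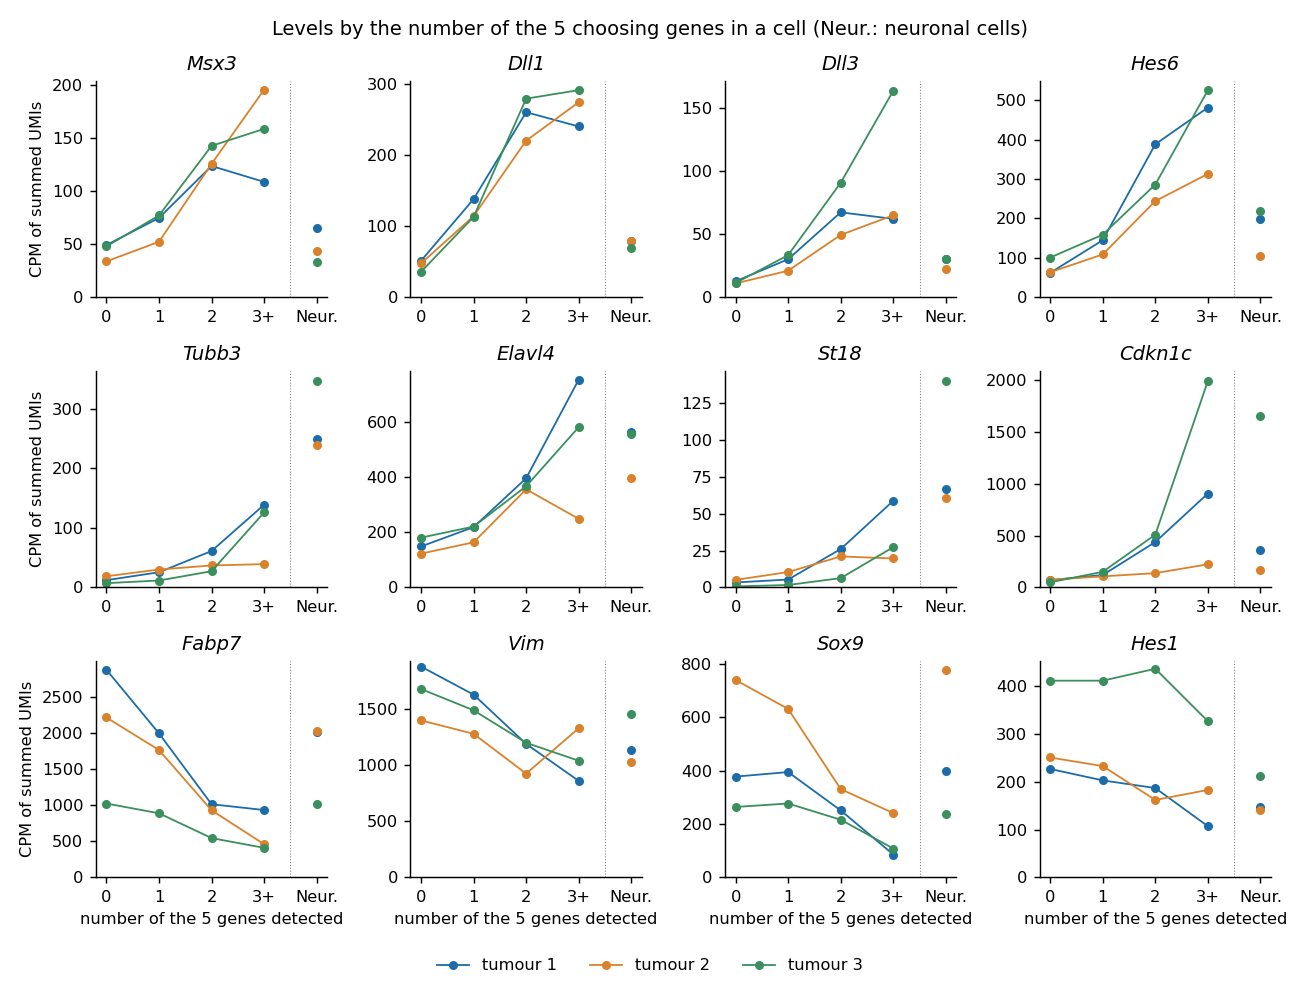
CPM of the summed UMIs of each gene in cells with 0, 1, 2 and 3 or more of the 5 genes and in neuronal cells (Neur.), 1 line per tumour, linear axes from 0. Cells with 0 genes are the Sox2-positive class only. Msx3, Dll1 and Dll3 are higher at 2 genes than in the neuronal cells of each tumour, Tubb3 and St18 are highest in neuronal cells, and Fabp7 falls with the number of genes in each tumour.

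The committed cells were finally split among themselves. Those with a UMI of Neurog1 or Neurog2 numbered 146, 47 and 176 and those with neither 344, 80 and 62, the latter holding at least 2 of Gadd45g, Insm1 and Nhlh1. No gene of 10382 tested was called higher (0.0%) or lower by edgeR, while 217 higher and 245 lower had an unadjusted p under 0.05. DESeq2 called 4 genes. With edgeR, 99 genes were called when tumour 1 was removed, 21 when tumour 3 was and 0 when tumour 2 was. The genes with the lowest p, named after their values were seen, were Vtn, Enc1 and Ddit4l. Enc1, an actin-binding gene of the nervous system, had 216, 194 and 106 CPM with Neurog1 or Neurog2 and 394, 328 and 234 CPM without (-0.94 ± 0.11, adjusted p = 0.091). Ddit4l was higher with the neurogenins in every tumour (1.19 ± 0.14, adjusted p = 0.091), and so was Nes (1.48 ± 0.20, adjusted p = 0.24). Vtn, a gene that mural cells transcribe, had 1, 1 and 85 UMIs against 153, 0 and 292.

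The tumours were not alike in this split. In tumour 3 Cdkn1c stood at 1030 CPM with the neurogenins and 89.4 CPM without, in tumour 2 at 231 and 103 CPM, and in tumour 1 at 482 and 481 CPM. Cdkn1c was picked out after its values were seen. Gsx1 had 78.7, 12.3 and 286 CPM with and 194, 111 and 195 CPM without, so tumour 3 went against the other tumours. The share of cells with at least 2 G2/M genes was 13.7, 14.9 and 23.3% with the neurogenins and 13.4, 17.5 and 22.6% without at 3000 UMIs, and the exact intervals overlapped in each tumour.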

How the data were processed

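Single cells of 3 tumours were profiled with 10x Genomics 3′ libraries. The authors made the deposited UMI counts with Cell Ranger 3.1.0 on mm10, per the labels, and the counts were used unnormalized. The members and the gene lists were chosen with earlier results of these data known. Cells with at least 3000 UMIs and at most 15% mitochondrial UMIs were kept. The comparison classes were Sox2-positive cells with none of the 5 genes that chose the committed cells, neuronal cells with at least 2 UMIs over Dcx and Stmn2, and immune cells with at least 2 of 3 immune genes. Doublets were scored with scanpy 1.11.5 at 0.8% per 1000 cells and removed only as an alternative, since Scrublet's own threshold marked 1, 5 and 0 cells.

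UMIs were summed per tumour and class, and sums of fewer than 20 cells were left out. They were tested with edgeR 4.0.16 (quasi-likelihood test, TMM normalization, filterByExpr, Benjamini-Hochberg adjustment over all genes, threshold 0.05) in R 4.3.3, with class and tumour as terms. The tumour is a block because both sums come from the same animal. The 14 genes used to choose a class were kept in the library sizes and out of the counts of calls. The method was tested on simulated counts. The text names the genes of a set list and the 8 largest changes each way among called genes with a mean of at least 20 CPM in the higher class that moved the same way in every tumour, leaving out mitochondrial genes and unnamed gene models. Other genes are members of the lists, and some genes are not reported here. Alternatives were DESeq2 1.42.0, RLE size factors, no filter, no block, each tumour left out, other limits on UMIs and genes, thinning, and removal of doublets, cycling cells or cells with glial markers. Removal of mural cells was added after seeing the data.

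Depth was 40151353 to 79529921 UMIs per library. Exact binomial intervals cover counting error only. Promoters are from RefSeq (GRCm38.p6), and the gene position from the mm10 annotation. A list's near-copies (Hspa1b with Hspa1a, Tubb2a with Tubb2b) share sequence, so their counts are uncertain. Overlapping genes were not told apart.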

Additional observations from a re-analysis of the deposited data

How the results depend on the processing

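With the numbers of the 3 tumours as names only, a paired fit was possible because both classes come from the same animal, so the tumour block is part of the design and "no replicate block" was the alternative. Without the block 2 genes were called against Sox2-positive cells and 6 against neuronal cells. With 1 tumour left out the calls ranged from 35 to 1112 against Sox2-positive cells, from 112 to 1474 against neuronal cells and from 0 to 99 between committed cells with and without Neurog1 or Neurog2. Ebf2, Nhlh2 and Atoh1 had 4, 0 and 0 UMIs in the 127 committed cells of tumour 2, so their levels there rest on few counts. Of the single-gene values, 597 of the Sox2-positive comparison and 525 of the neuronal comparison kept their direction and their side of the threshold, 93 and 118 lost their call, 28 and 13 gained one, and 19 and 35 changed sign. In the split by Neurog1 or Neurog2, 46 stayed on their side of the threshold and 30 gained a call.

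Against Sox2-positive cells, 1377 genes were called with no low count filter (36.5% of them higher), 532 with at least 3 of the 5 genes and 527 with Dcx or Stmn2 allowed in the Sox2-positive cells. Against neuronal cells, 842 were called between 3000 and 15000 UMIs, 906 with cycling cells removed, 719 after thinning and 85 with at least 3 genes. In the split by Neurog1 or Neurog2, 195 were called with no filter, 4 by DESeq2, 3 without doublets, 27 between 3000 and 15000 UMIs and 15 without cycling cells. The share of committed cells was 2.81% after thinning and 0.874% with at least 3 genes. The cause of these changes was not tested.

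Some small differences changed sign. Against Sox2-positive cells, Gap43 was at -0.19 with no block, -0.21 after thinning, -1.59 with at least 3 genes, -0.01 in members with Sox2 and -0.33 with Dcx or Stmn2 allowed. Mki67 was at 0.00 with no block, 0.01 without doublets, 0.04 between 3000 and 15000 UMIs and 0.00 in members with Sox2. Top2a was at 0.02 without doublets, 0.05 without other cell types, 0.01 with at least 3 genes and 0.09 in members with Sox2, and Cdh2 at 0.07 between 3000 and 15000 UMIs and 0.05 without cycling cells. With a tumour left out, Gap43 ranged from -0.23 to 0.31, Mki67 from -0.25 to 0.13, Top2a from -0.14 to 0.17 and Cdh2 from -0.09 to 0.10.

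Against neuronal cells, Id3 was at 0.05 with no block, 0.12 between 3000 and 15000 UMIs, 0.29 without cycling cells, 0.15 after thinning and 0.79 with both Dcx and Stmn2 required. Notch1 was at 0.41, 0.38 and 0.59 in the settings on UMIs, cycling cells and thinning, 0.05 without other cell types, 0.38 with at least 3 genes and 0.75 with both required. Mfng was at 0.57, 0.51 and 1.15 and Cdkn1c at 0.52, 0.30 and 1.03 between 3000 and 15000 UMIs, after thinning and with at least 3 genes. Nes was at -0.34 between 3000 and 15000 UMIs and -0.51 after thinning, and Hes5 at -0.14 between 3000 and 15000 UMIs. Rest was at -0.04 after thinning and -0.11 with at least 3 genes, where Fgl2 was at -1.40 and Elavl4 at 0.26. With both Dcx and Stmn2 required, Sox4 was at -0.01, Sox9 at 0.10 and Vim at 0.70. With a tumour left out, Id3 ranged from -0.36 to 0.40, Nes from -0.11 to 0.43, Notch1 from -0.50 to 0.17 and Id1 from -0.08 to 0.33. Over the same fits Mfng ranged from -0.60 to 0.48, Hes5 from -0.22 to 0.87, Vim from -0.18 to 0.01 and Cdkn1c from -0.71 to 0.32.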
